A study of Mus musculus with 12 samples.

Results

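The 7 genes Il4ra, Pparg, Chil3, Retnla, Mgl2, Tgfb1 and Igf1 are commonly used to mark or are linked to alternative activation of macrophages, and they were taken by their symbols from the 43453 genes of the count table. The study compared bone marrow-derived macrophages (BMDMs) of C57BL/6 mice with loxP sites on both copies of Tlr4 (tlr4f/f) with BMDMs of mice that also carried lysM-cre (tlr4f/f-lysM-cre), a Cre recombinase driven by the promoter of lysozyme M (Lyz2) that is meant to delete Tlr4 in myeloid cells. All cells were grown for 7 days with 50 ng/mL M-CSF, and RNA was sequenced from cells left untreated (LPS-) or given 1 µg/mL of lipopolysaccharide for 6 h (LPS+), with 3 libraries in each of the 4 groups. Tlr4 encodes the receptor through which macrophages sense lipopolysaccharide (LPS). No agent that drives alternative activation is named in the sample labels, the age of the donor mice is not given for the cultures, and nothing says that the 3 libraries of a group came from separate mice, so p-values measure only the spread between these samples. The libraries held between 33577440 and 56445989 counts with 1 transcript taken per gene, and the median was 45331247.

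The targeted gene was examined first, in every library, each of which is a column of the count table. Tlr4 was at 77.0, 146 and 121 CPM (counts normalized to the library total and by TMM factors) in the columns headed LPS- tlr4f/f, at 117, 94.7 and 116 CPM under the heading LPS- tlr4f/f-lysM-cre, at 31.2, 28.0 and 24.5 CPM under the heading LPS+ tlr4f/f and at 27.4, 24.4 and 24.7 CPM under the heading LPS+ tlr4f/f-lysM-cre. It was therefore low under both LPS+ headings, whatever the genotype in the heading, and it overlapped between the genotypes in the headings with and without LPS. The count covers the whole transcript, and which part of Tlr4 is deleted is not given in the sources used here, so a transcript that lacks this part would still be counted. Lyz2, the gene whose promoter drives Cre, had means of 13110, 7574, 11.9 and 62.0 CPM in the same order of headings. Il1b, a cytokine gene induced by LPS, had means of 3.701, 4223, 3.23 and 2588 CPM, and Nos2, the inducible nitric oxide synthase, had means of 1.67, 3293, 0.729 and 161 CPM. Tlr4 and Lyz2 were thus low in the 6 libraries headed LPS+, while Il1b and Nos2 were high in the 6 whose heading includes lysM-cre.

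The heading LPS- tlr4f/f-lysM-cre may therefore have been exchanged with the heading LPS+ tlr4f/f, and every comparison is given under both readings. With the headings exchanged, the comparison of the columns headed LPS- tlr4f/f-lysM-cre with those headed LPS- tlr4f/f becomes the effect of LPS in tlr4f/f, and the comparison of the ones headed LPS+ tlr4f/f-lysM-cre with those headed LPS+ tlr4f/f becomes the effect of LPS in tlr4f/f-lysM-cre. As headed, both are comparisons of genotypes. The comparison of the columns headed LPS+ tlr4f/f with those headed LPS- tlr4f/f is the effect of LPS in tlr4f/f as headed and that of genotype without LPS when exchanged, and the comparison of the ones headed LPS+ tlr4f/f-lysM-cre with those headed LPS- tlr4f/f-lysM-cre is the effect of LPS in tlr4f/f-lysM-cre as headed and that of genotype with LPS when exchanged. The interaction of genotype and LPS, and the comparison of the columns headed LPS+ tlr4f/f-lysM-cre with those headed LPS- tlr4f/f, are the same under both readings. The comparisons share groups of libraries, so they are not independent of each other.

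Macrophages take on the state called alternative activation when interleukin-4 or interleukin-13 binds a receptor that contains the alpha chain encoded by Il4ra, and Janus kinases at the receptor phosphorylate the transcription factor STAT6. Chil3 (Ym1, a chitinase-like protein), Retnla (RELM-alpha, also called Fizz1) and Mgl2 (the lectin CD301b) are targets of this pathway in mouse macrophages, and Pparg encodes a nuclear receptor that controls genes of lipid metabolism and takes part in the response. Tgfb1 and Igf1 encode secreted factors with roles in tissue repair, and LPS drives macrophages to the opposite state, called classical activation.

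Of the 3 targets of interleukin-4 among the 7 genes, Retnla and Mgl2 were at or near 0 in these cultures and Chil3 was low in 11 of 12 libraries, so the name alternative activation markers is not used here for the state of the cells. Retnla had 0 counts in 11 of 12 libraries and 1 count in replicate 1 of those headed LPS+ tlr4f/f, where a count of 0 allows up to 0.0478 to 0.0935 CPM by library (3 counts, counting error only). Mgl2 reached at most 1.02 CPM, and Chil3 stayed below 5 CPM in all libraries but replicate 3 of the ones headed LPS- tlr4f/f-lysM-cre, where it was at 37.05 CPM. Other genes linked to this state were well expressed, such as Mrc1 and Tgm2 (chosen after their values were seen), with group means between 61.9 and 219 CPM and between 51.3 and 439.6 CPM. The cytokine genes Il4 and Il13 had at most 4 and 2 counts in any library (these 2 genes were chosen after their values were seen). Of the 8 macrophage markers searched, none was at 3 counts or less in any library, and their sum lay between 4453 and 29580 CPM with Lyz2 the most abundant in the 6 libraries where the sum was highest. The library at 29580 CPM held 23330 CPM of Lyz2, the gene whose promoter drives Cre. Whether this sum follows the number of macrophages was not tested. In RNA of whole cultures, fewer cells that express a gene and less RNA of it per cell cannot be told apart.

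Of the 7 genes, 6 passed the filter on low counts in each comparison and Retnla was not tested. A gene was counted as differentially expressed (DEG) when edgeR gave it more than a 2-fold change with an adjusted p under 0.01. Among the columns headed LPS- tlr4f/f-lysM-cre against those headed LPS- tlr4f/f, 2 of the 7 genes were DEGs, against 17.1% of 14649 genes tested. Il4ra was higher, as were 9.26% of genes, and Pparg was lower, as were 7.81% of genes. The median log2 fold change of the 6 tested members was 0.52, and that of all genes tested was -0.08. At an adjusted p below 0.05 with any fold change the count was also 2, against 37.3% of genes.

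In the columns headed LPS+ tlr4f/f-lysM-cre against those headed LPS+ tlr4f/f, 2 of the 7 genes were DEGs, against 21.8% of 14551 genes tested. Again Il4ra was higher (10.8% of genes were) and Pparg was lower (10.9% of genes were). With any fold change, 4 had an adjusted p below 0.05 by edgeR, against 61.4% of genes, the others being Tgfb1 and Igf1. The members had a median log2 fold change of -0.08, beside -0.02 for all genes. These groups had little spread between replicates (biological coefficient of variation 8.78% and 9.02%, as against 48.4% and 42.8% in the groups headed LPS- tlr4f/f and, with LPS-, tlr4f/f-lysM-cre). The part of this spread in the number of calls was not tested.

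The columns headed LPS+ tlr4f/f-lysM-cre differed from those headed LPS- tlr4f/f-lysM-cre in 1 of the 7 genes by the DEG criteria, against 6.09% of 14245 genes tested. This was Il4ra, which was lower, as were 3.66% of genes (2.42% were higher), and it was also the 1 gene with an adjusted p below 0.05, against 26.7% of genes. The median log2 fold change was -0.58 for the members and 0.03 for all genes. In the columns headed LPS+ tlr4f/f against those headed LPS- tlr4f/f, edgeR called 0 of the 7 genes and 0% of 14712 genes tested. Lyz2 missed the threshold here too (log2 -10.1, edgeR adjusted p = 0.0224), so a count of 0 says little about the 7 genes. DESeq2 and limma also called 0 of the 7 genes, but the share of all genes they called is not given here. At an edgeR adjusted p below 0.05 it was 0 members against 1.28% of genes, whereas DESeq2 gave Il4ra (0.0130) and Pparg (0.0124) such a value, limma Il4ra (0.0164) and a single edgeR fit of 12 libraries Il4ra (0.0448), within the ranges given for these genes below. For edgeR at an unadjusted p below 0.05 it was 2 members (Il4ra and Pparg) against 24.6% of genes. Here the median was 0.09 for the members and -0.03 for all genes.

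For the interaction, 0 of the 7 genes were DEGs by edgeR, against 0.994% of 15792 genes (0.589% higher and 0.405% lower). DESeq2 and limma also called 0 of the 7, without a share of all genes to set beside it. At an adjusted p below 0.05 the count was 0 against 6.99%, and at an unadjusted p below 0.05 it was 1 (Mgl2) against 23.4%. The members' median interaction was -0.30 on the log2 scale, and that of all genes was 0.05. Between columns headed LPS+ tlr4f/f-lysM-cre and the ones headed LPS- tlr4f/f, whose headings are not in doubt but which differ in genotype and LPS together, 1 of the 7 genes was a DEG by edgeR, against 13.4% of 14595 genes (6.93% higher and 6.45% lower). Pparg was the gene and it was lower. In this comparison 3 members had an adjusted p below 0.05 (Il4ra, Pparg and Tgfb1), against 40.7% of genes, and the median was -0.24 for the members and -0.05 for all genes.

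**Figure D1:**
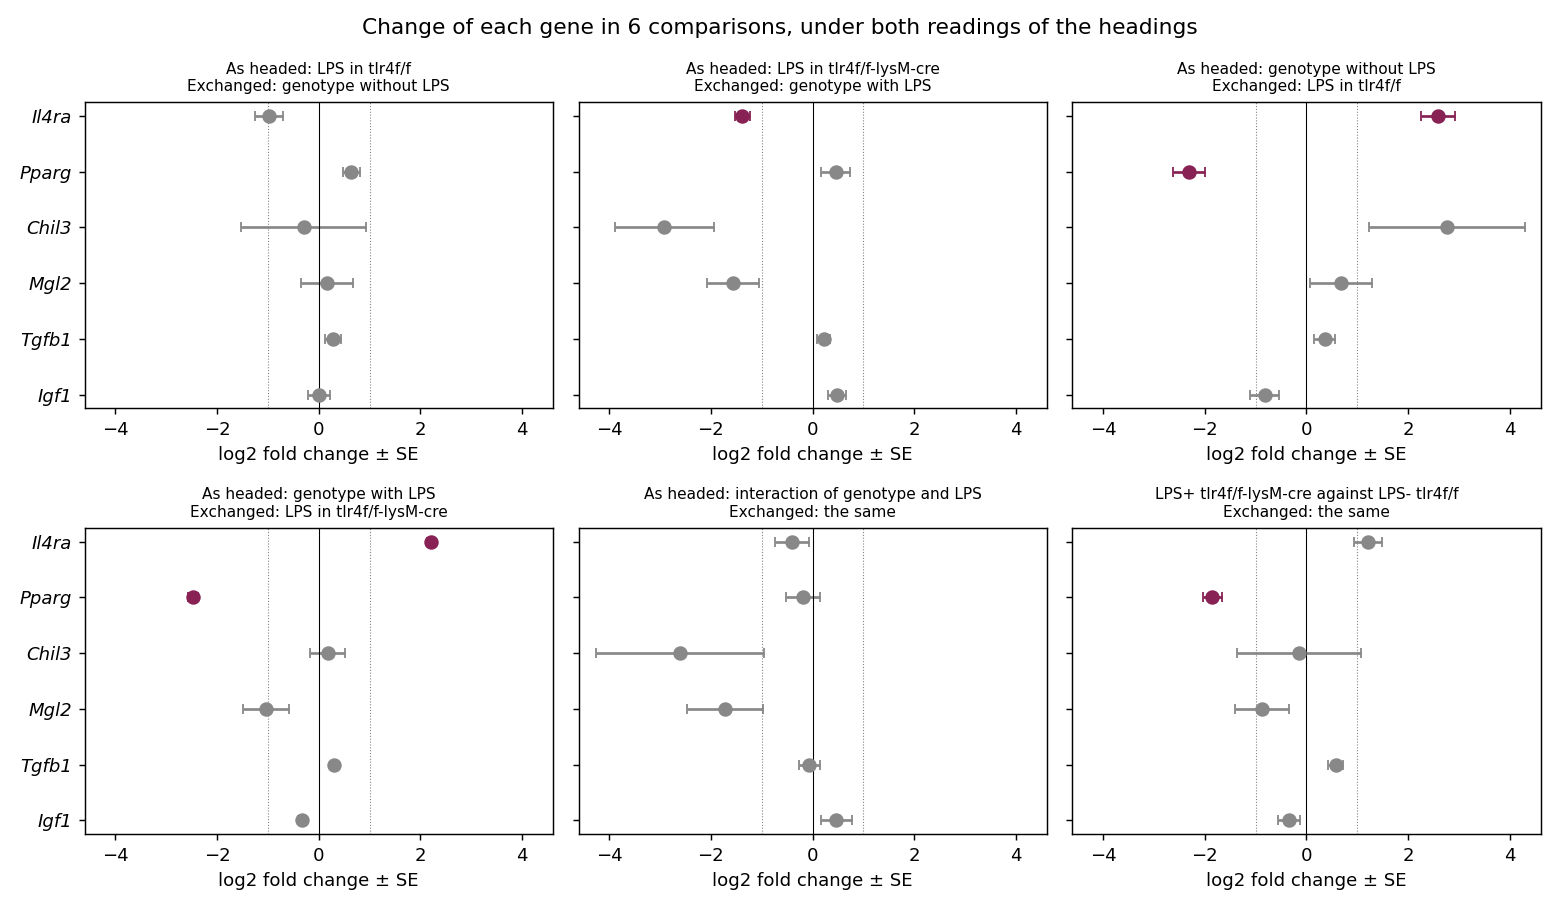
Log2 fold change of the 6 tested genes in each of 6 comparisons (horizontal axis, with its standard error), named by the headings and by the exchanged headings. Purple points passed the DEG criteria, grey points did not, and dotted lines mark a fold change of 2. Il4ra and Pparg lie on opposite sides in the comparisons of the columns headed LPS- tlr4f/f-lysM-cre with LPS- tlr4f/f (2.59 and -2.30) and of the ones headed LPS+ tlr4f/f-lysM-cre with LPS+ tlr4f/f (2.20 and -2.47).

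The sequences before the start of each gene were read for short motifs of factors that act in these pathways, because Il4ra and Pparg moved apart while Chil3 and Mgl2 passed no test. Retnla was too low to be tested. All 7 genes matched an entry of RefSeq (GRCm38.p6), Pparg with 3 starts. The 250 bases before each start were searched on both strands for TTCNNNNGAA (the spacing bound by STAT6), TTCNNNGAA (other STAT factors), GAGGAA (PU.1), GGGCGG (SP1), TGANTCA (AP-1), GAAANNGAAA (the interferon-stimulated response element) and GGGRNYYYCC (kappa B, R being A or G and Y being C or T). STAT6 letters were in 5.85% of 32851 windows and in 1 of the 7 genes, Retnla, 145 bases before the start. The other STAT letters were in 7.02% of windows and in Chil3, 172 bases before the start. PU.1 letters were in 23.3% of windows and in 4 of the 7 genes, SP1 in 32.7% and 3 (Pparg, Tgfb1 and Il4ra), kappa B in 5% and 1 (Tgfb1), AP-1 in 6.75% and 1 (Igf1), and the interferon element in 2.98% and 0. Printed here are the stretches outside annotated exons for the 2 genes that were DEGs, Il4ra (chr7:125552021-125552119, plus strand) and Pparg (chr6:115362099-115362291, plus strand, before the second of its 3 starts), and for the 2 with STAT letters, Chil3 (chr3:106167565-106167814, minus strand) and Retnla (chr16:48842359-48842550, plus strand). Capitals mark SP1 letters in Pparg and STAT letters in Chil3 and Retnla, and the SP1 letters of Il4ra lie in the bases left out.
Il4ra: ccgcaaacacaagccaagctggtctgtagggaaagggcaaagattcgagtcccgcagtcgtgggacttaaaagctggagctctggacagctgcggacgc
Pparg: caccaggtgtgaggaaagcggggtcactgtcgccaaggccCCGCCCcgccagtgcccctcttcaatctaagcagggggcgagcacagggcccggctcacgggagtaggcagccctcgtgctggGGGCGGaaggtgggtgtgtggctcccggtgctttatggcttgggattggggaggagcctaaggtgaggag
Chil3: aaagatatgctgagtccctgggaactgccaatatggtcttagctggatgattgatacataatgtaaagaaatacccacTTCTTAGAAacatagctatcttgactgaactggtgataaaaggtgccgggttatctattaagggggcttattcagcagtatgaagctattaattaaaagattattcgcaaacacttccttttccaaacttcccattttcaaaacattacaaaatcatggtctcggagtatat
Retnla: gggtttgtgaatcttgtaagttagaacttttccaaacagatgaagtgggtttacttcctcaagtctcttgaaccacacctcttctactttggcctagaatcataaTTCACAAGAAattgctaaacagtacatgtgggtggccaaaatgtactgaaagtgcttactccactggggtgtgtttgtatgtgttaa
A match of letters is a description of the sequence, and no match says only that the letters are absent from the window.

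Il4ra encodes the alpha chain shared by the receptors for interleukin-4 and interleukin-13 (chr7:125552271-125579474, plus strand, GRCm38.p6). It was at 74.5, 69.8 and 35.8 CPM in columns headed LPS- tlr4f/f, at 341, 446 and 304 CPM under the heading LPS- tlr4f/f-lysM-cre, at 29.5, 32.8 and 28.6 CPM under the heading LPS+ tlr4f/f and at 140.3, 128 and 147 CPM under the heading LPS+ tlr4f/f-lysM-cre. No library of any group reached into the range of another group, and by the headings the order from the highest was LPS- before LPS+ within tlr4f/f-lysM-cre, followed by LPS- before LPS+ within tlr4f/f. The means were 364 ± 73.7 (SD, n = 3), 138 ± 9.59, 60.0 ± 21.1 and 30.3 ± 2.20 CPM in this order. The 2 groups with high Il1b and Nos2 were thus the 2 groups with high Il4ra.

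Between columns headed LPS- tlr4f/f-lysM-cre and columns headed LPS- tlr4f/f, Il4ra was 6.00-fold higher in the former (log2 fold change 2.59, SE 0.327, edgeR adjusted p = 0.00212), a genotype difference as headed and an effect of LPS in tlr4f/f with the headings exchanged. The other such comparison, of the columns headed LPS+ tlr4f/f-lysM-cre with those headed LPS+ tlr4f/f, gave a 4.61-fold higher level (log2 2.20, SE 0.0695, edgeR adjusted p = 6.04e-11), a genotype difference as headed and an effect of LPS in tlr4f/f-lysM-cre when exchanged. Of the 2 groups with high Il4ra, the columns headed LPS+ tlr4f/f-lysM-cre were 2.60-fold lower than those headed LPS- tlr4f/f-lysM-cre (log2 -1.38, SE 0.155, edgeR adjusted p = 0.00275). As headed this is a fall with LPS in tlr4f/f-lysM-cre, and exchanged it is a lower level in tlr4f/f-lysM-cre than in tlr4f/f after LPS. The call was lost when replicate 1, 2 or 3 headed LPS+ tlr4f/f-lysM-cre was omitted (log2 -1.38, -1.32 and -1.42, edgeR adjusted p = 0.0268, 0.0284 and 0.0244), within a range of 1.26e-12 to 0.0284 over the alternatives tried.

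Among the 2 groups with low Il4ra, the columns headed LPS+ tlr4f/f lay below all those headed LPS- tlr4f/f, but the difference did not pass the test (log2 -0.98, SE 0.281, edgeR adjusted p = 0.1095). Without replicate 3 headed LPS- tlr4f/f, the lowest of its group, it passed (log2 -1.24, edgeR adjusted p = 0.00318, range 0.00318 to 0.333 over the alternatives). The interaction was -0.41 on the log2 scale (SE 0.336, edgeR adjusted p = 0.511), so the difference between columns headed LPS+ and LPS- was not shown to depend on the genotype in the heading. Against the columns headed LPS- tlr4f/f, those headed LPS+ tlr4f/f-lysM-cre had 2.31-fold more Il4ra, which missed the DEG threshold with edgeR (log2 1.21, SE 0.276, adjusted p = 0.0160, range 0.000174 to 0.0574, with 0.05685 and 0.0574 without replicate 1 and 3 headed LPS+ tlr4f/f-lysM-cre). Il4ra was a DEG here with DESeq2 (log2 1.23, adjusted p = 0.000174), limma (log2 1.05, adjusted p = 0.00213) and a single edgeR fit of 12 libraries (log2 1.20, adjusted p = 0.00255). The table lists 2 transcripts of Il4ra, and their log2 ratios of group means were 2.57 and 2.60 between the groups headed LPS- and 2.19 for both between the groups headed LPS+.

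**Figure D2:**
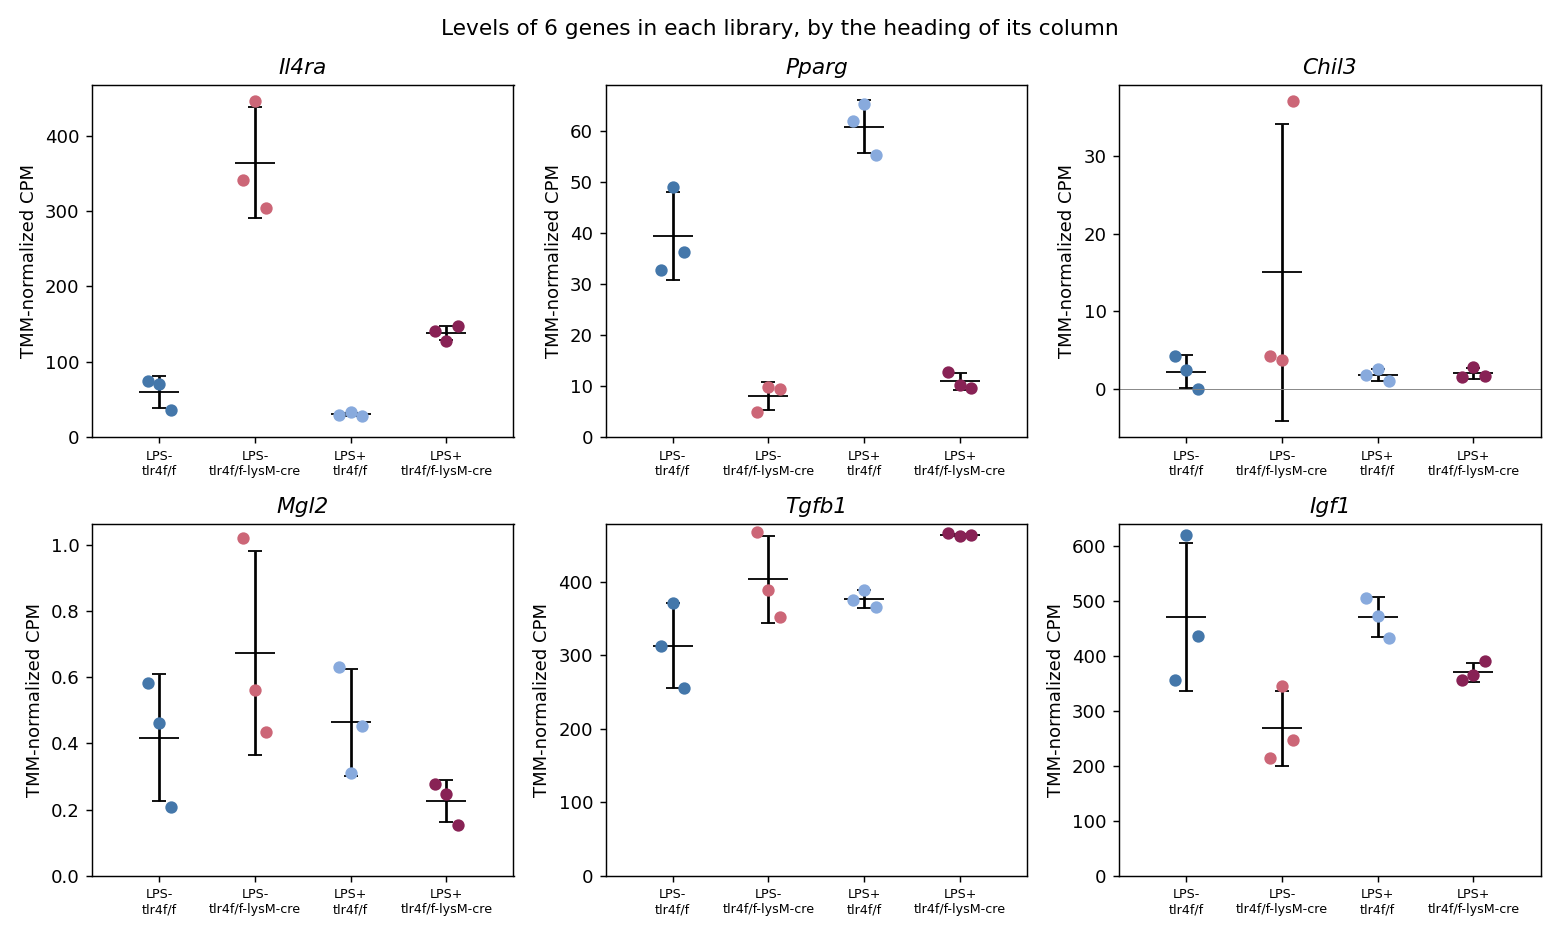
TMM-normalized CPM of the 6 detected genes in each library (points), by the heading of its column, with the mean and SD of each group of 3 (black). Il4ra lies between 128 and 446 CPM in the 6 whose heading includes lysM-cre and between 28.6 and 74.5 CPM in the 6 headed tlr4f/f, while Chil3 reaches 37.05 CPM in 1 library.

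Pparg encodes the nuclear receptor PPAR-gamma (chr6:115360879-115490404, plus strand). Its level was 32.75, 49.0 and 36.2 CPM in columns headed LPS- tlr4f/f, 4.94, 9.72 and 9.43 CPM under the heading LPS- tlr4f/f-lysM-cre, 61.8, 65.3 and 55.2 CPM under the heading LPS+ tlr4f/f and 12.75, 10.2 and 9.69 CPM under the heading LPS+ tlr4f/f-lysM-cre. All 6 libraries headed tlr4f/f were above all 6 headed tlr4f/f-lysM-cre. The group means were 39.3 ± 8.59, 8.03 ± 2.68, 60.8 ± 5.13 and 10.9 ± 1.64 CPM (SD, n = 3), and the 2 groups with low Pparg overlapped.

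The columns headed LPS- tlr4f/f-lysM-cre had 4.93-fold less Pparg than those headed LPS- tlr4f/f (log2 -2.30, SE 0.315, edgeR adjusted p = 0.00273). Those headed LPS+ tlr4f/f-lysM-cre had 5.54-fold less than those headed LPS+ tlr4f/f (log2 -2.47, SE 0.1035, edgeR adjusted p = 4.43e-09). As headed, both are lower levels in tlr4f/f-lysM-cre, and exchanged, both are falls with LPS, in either genotype. The first of these calls was lost without replicate 2 headed LPS- tlr4f/f (log2 -2.11, edgeR adjusted p = 0.0107) and without replicate 2 (log2 -2.45, adjusted p = 0.0107) or 3 (log2 -2.41, adjusted p = 0.0121) headed LPS- tlr4f/f-lysM-cre, and over all alternatives its adjusted p ran from 3.33e-09 to 0.0121.

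The comparisons within the genotype of the heading gave smaller values that did not pass with edgeR. For the columns headed LPS+ tlr4f/f against those headed LPS- tlr4f/f the log2 fold change of Pparg was 0.64 (SE 0.169, edgeR adjusted p = 0.0950, range 0.0124 to 0.312 over the alternatives), with no overlap between the groups, and the corresponding value for the headings with lysM-cre was 0.45 (SE 0.279, edgeR adjusted p = 0.268). These are LPS effects as headed and genotype differences when exchanged, and the interaction was -0.19 (edgeR adjusted p = 0.789). In the comparison whose headings are not in doubt, the columns headed LPS+ tlr4f/f-lysM-cre had 3.60-fold less Pparg than those headed LPS- tlr4f/f (log2 -1.85, SE 0.194, edgeR adjusted p = 0.00117). This call was lost without replicate 2 (log2 -1.80, edgeR adjusted p = 0.0117) or replicate 3 (log2 -1.76, adjusted p = 0.01002) headed LPS+ tlr4f/f-lysM-cre, and the range was 1.10e-14 to 0.0117. All 12 transcripts of Pparg had log2 ratios between -2.32 and -2.22 for the groups headed LPS- and between -2.49 and -2.46 for the groups headed LPS+.

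Per kb of transcript, the scale on which levels of different genes can be compared, Il4ra and Pparg changed places when the length listed for the transcript used was taken (5.094 and 2.127 kb). The ratio of Il4ra to Pparg in CPM per kb was 0.949, 0.595 and 0.413 in the columns headed LPS- tlr4f/f and 0.199, 0.210 and 0.216 under the heading LPS+ tlr4f/f. It was 28.8, 19.2 and 13.5 in the columns headed LPS- tlr4f/f-lysM-cre and 4.59, 5.23 and 6.33 under the heading LPS+ tlr4f/f-lysM-cre. Pparg was thus above Il4ra in 6 of 6 libraries headed tlr4f/f and below it in 6 of 6 headed tlr4f/f-lysM-cre, which are the libraries with little and with much Il1b. In CPM, without lengths, Il4ra was above Pparg in 2 of 3 libraries headed LPS- tlr4f/f, so the order there depends on the scale. Under the other headings the order was the same on both scales, and the lengths of other transcripts were not used. This ratio was chosen after the values were seen and was not tested.

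**Figure D3:**
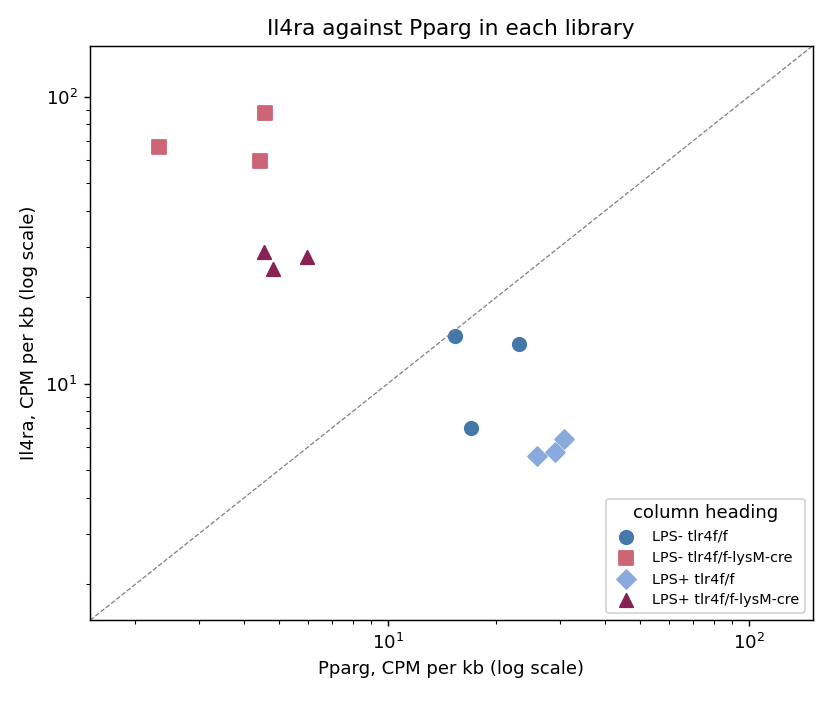
Il4ra (vertical axis) against Pparg (horizontal axis) in each library, both in CPM per kb on log scales, with a dashed line where they are equal. The 6 libraries headed tlr4f/f lie below the line and the 6 headed tlr4f/f-lysM-cre above it, with ratios from 0.199 to 0.949 and from 4.59 to 28.8.

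Chil3, a secreted chitinase-like protein of macrophages and neutrophils (chr3:106147554-106167564, minus strand), had 246, 150 and 1 counts in columns headed LPS- tlr4f/f (4.22, 2.39 and 0.0187 CPM), 157, 119 and 1191 counts under the heading LPS- tlr4f/f-lysM-cre (4.21, 3.71 and 37.05 CPM), 84, 101 and 59 counts under the heading LPS+ tlr4f/f (1.77, 2.60 and 1.02 CPM) and 69, 102 and 73 counts under the heading LPS+ tlr4f/f-lysM-cre (1.59, 2.80 and 1.62 CPM). The highest and the lowest value of the 12 each belonged to a replicate 3 of the columns headed LPS-, and the 6 columns headed LPS+ lay close together. No comparison passed the test. The largest values were a log2 fold change of -2.91 (SE 0.972, edgeR adjusted p = 0.0680) for the columns headed LPS+ tlr4f/f-lysM-cre against those headed LPS- tlr4f/f-lysM-cre, and 2.76 (SE 1.53, edgeR adjusted p = 0.201) for the latter against those headed LPS- tlr4f/f. As headed these are an LPS and a genotype difference, and exchanged a genotype and an LPS difference. Without replicate 3 headed LPS- tlr4f/f-lysM-cre they were -0.99 (edgeR adjusted p = 0.0631, range 0.0363 to 0.2135 over the alternatives) and 0.86 (edgeR adjusted p = 0.690, range 0.0770 to 0.690). In the other comparisons the log2 values were -0.30 (columns headed LPS+ tlr4f/f against LPS- tlr4f/f), 0.18 (the groups headed LPS+), -2.60 (interaction) and -0.14 (LPS+ tlr4f/f-lysM-cre against LPS- tlr4f/f), with edgeR adjusted p-values of 0.906, 0.693, 0.381 and 0.936.

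Markers of neutrophils and their precursors had their extremes in the same libraries as Chil3. The sum of the 9 markers searched was 14.2, 12.3 and 0.637 CPM in columns headed LPS- tlr4f/f, 28.0, 15.2 and 193 CPM under the heading LPS- tlr4f/f-lysM-cre, 4.90, 7.09 and 6.06 CPM under the heading LPS+ tlr4f/f and 5.73, 7.84 and 7.63 CPM under the heading LPS+ tlr4f/f-lysM-cre. The library with the most Chil3 had the largest sum and the library with 1 count of Chil3 had the smallest. S100a8 was the most abundant of the markers in all 12 libraries, at 125 CPM in replicate 3 headed LPS- tlr4f/f-lysM-cre, and Ly6g, which defines mature neutrophils, had no more than 1 count in any library. In that replicate 3, 1 of the 9 markers was at 3 counts or less, and in replicate 3 headed LPS- tlr4f/f it was 7 of 9. The part of such cells in the level of Chil3 was not tested. The gene most like Chil3 over the 12 libraries was S100a9, 1 of these markers (Pearson r = 0.963 of log2 CPM), followed by Bmpr1a (0.954) and Fn1 (0.934).

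**Figure D4:**
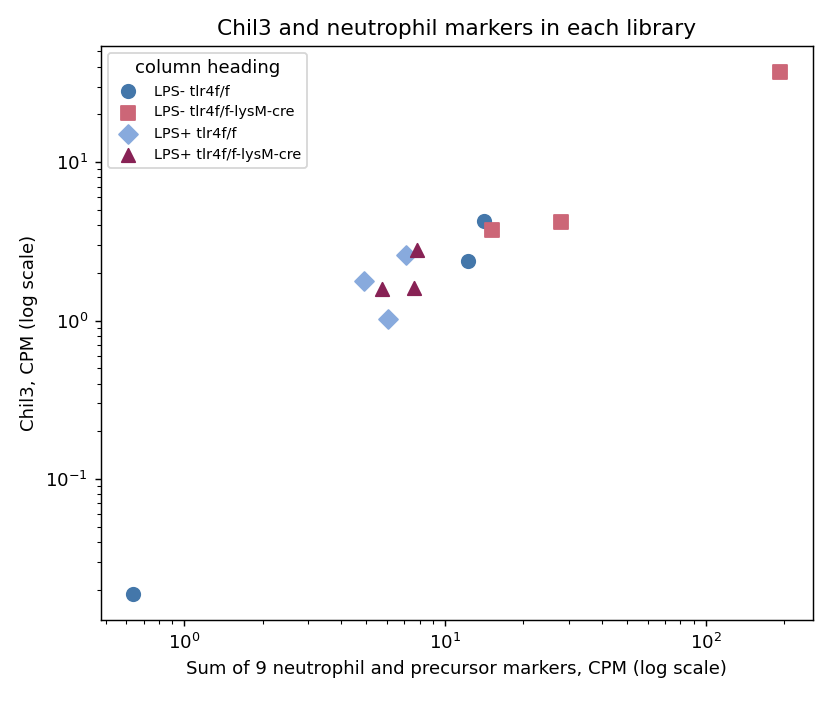
Chil3 (vertical axis) against the sum of 9 markers of neutrophils and their precursors (horizontal axis), both in CPM on log scales, 1 point per library. Replicate 3 headed LPS- tlr4f/f-lysM-cre lies at the top right (193 and 37.05 CPM) and replicate 3 headed LPS- tlr4f/f at the bottom left (0.637 and 0.0187 CPM).

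Stromal markers also varied within the groups headed LPS-. Their sum over 8 genes was 703, 62.8 and 9.99 CPM in columns headed LPS- tlr4f/f and 1040, 191 and 1523 CPM under the heading LPS- tlr4f/f-lysM-cre, led by Col1a1 in 5 of these 6 libraries, and it lay between 22.2 and 58.7 CPM under the LPS+ headings. The sums of 5 eosinophil markers lay between 2.25 and 37.5 CPM and were led by Ccr3 or Siglecf, and 6 dendritic cell markers summed to at most 6.87 CPM, led by Xcr1 where the sum was highest. The 6 markers of mast cells and basophils summed to at most 0.349 CPM. By the DEG criteria, the columns headed LPS+ tlr4f/f-lysM-cre had 3 of 8 stromal markers lower than those headed LPS- tlr4f/f-lysM-cre, with Col1a1 the largest change (log2 -5.11, edgeR adjusted p = 0.00871). They had 2 of 8 higher than those headed LPS+ tlr4f/f, with Pdgfrb the largest (log2 4.81, edgeR adjusted p = 2.575e-09), where 3.66% of all genes were lower and 10.8% higher. Of the neutrophil markers, 2 were higher and 1 lower of 6 tested between the groups headed LPS+ (10.8% and 10.9% of all genes), led by Camp (log2 3.31, edgeR adjusted p = 0.00119, at 0 to 8 counts in the lower group) and Mpo (log2 -1.92, edgeR adjusted p = 0.000525), and 0 passed elsewhere. Of 6 dendritic markers, 1 to 4 were tested in a comparison and Xcr1 was the 1 called. It had 84 to 176 counts under LPS- tlr4f/f-lysM-cre and 75 to 122 under LPS+ tlr4f/f-lysM-cre. Under LPS- tlr4f/f it had 1 to 14 counts, and 4 to 15 under LPS+ tlr4f/f. Xcr1 was called higher under the lysM-cre heading among the groups headed LPS- (9.26% of all genes were) and LPS+ (10.8%). It was also called higher under LPS+ tlr4f/f-lysM-cre than under LPS- tlr4f/f (6.93% of all genes were). No eosinophil marker was called of 2 tested, and none of the mast cell and basophil markers was tested. Of the macrophage markers, 3 of 8 were higher under LPS+ tlr4f/f-lysM-cre than under LPS+ tlr4f/f (10.8% of all genes), led by Lyz2 (log2 2.40, edgeR adjusted p = 4.16e-05), and Lyz2 was the 1 lower in the columns headed LPS+ tlr4f/f-lysM-cre against either group headed LPS- (log2 -6.92 and -7.72, edgeR adjusted p = 0.000254 and 0.000570), as were 3.66% and 6.45% of all genes. Since the promoter of Lyz2 drives Cre, its calls are not read as differences in the number of macrophages. The part of the Cre construct in the level of Lyz2 was not tested. The part of other cells in the levels of the 7 genes was not tested.

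Retnla (chr16:48842609-48844461, plus strand), a secreted cysteine-rich protein, gave no test and no fold change because all libraries were at or under 3 counts. Its relatives Retnlb and Retnlg had at most 1 count in a library. Mgl2, a galactose-type lectin (chr11:70130125-70137542, plus strand), was at 0.583, 0.462 and 0.206 CPM in columns headed LPS- tlr4f/f, at 1.02, 0.561 and 0.4355 CPM under the heading LPS- tlr4f/f-lysM-cre, at 0.631, 0.309 and 0.451 CPM under the heading LPS+ tlr4f/f and at 0.276, 0.247 and 0.155 CPM under the heading LPS+ tlr4f/f-lysM-cre. These levels rest on 7 to 38 counts per library, and the columns headed LPS+ tlr4f/f-lysM-cre were below all those headed LPS+ tlr4f/f and all those headed LPS- tlr4f/f-lysM-cre. As headed these are differences by genotype and by LPS, and exchanged by LPS and by genotype, but neither passed (log2 -1.04, SE 0.456, edgeR adjusted p = 0.0662, and log2 -1.56, SE 0.508, edgeR adjusted p = 0.0639, range 0.0404 to 0.225 over the alternatives). The 6 transcripts of Mgl2 gave log2 ratios from -1.04 to -0.08 for the groups headed LPS+, so the size of this difference depends on the transcript. In the remaining comparisons Mgl2 had log2 values of 0.17 (columns headed LPS+ tlr4f/f against LPS- tlr4f/f), 0.68 (the groups headed LPS-), -1.72 (interaction) and -0.88 (LPS+ tlr4f/f-lysM-cre against LPS- tlr4f/f), with edgeR adjusted p-values of 0.872, 0.417, 0.191 and 0.231.

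Clec10a, the near copy of Mgl2 that encodes CD301a, had more counts than Mgl2 in every library outside the heading LPS+ tlr4f/f-lysM-cre. Under that heading it had fewer in replicates 1 and 2. It had 206, 219 and 207 counts in columns headed LPS- tlr4f/f, 60, 38 and 41 under the heading LPS- tlr4f/f-lysM-cre, 80, 71 and 176 under the heading LPS+ tlr4f/f and 3, 7 and 19 under the heading LPS+ tlr4f/f-lysM-cre. Every library of the last group was below every other library. Clec10a was lower in the columns headed LPS+ tlr4f/f-lysM-cre than under the heading LPS+ tlr4f/f (log2 -3.23, SE 0.473, edgeR adjusted p = 0.0001245) and than under the heading LPS- tlr4f/f (log2 -3.97, SE 0.592, edgeR adjusted p = 0.00364). The first is a genotype difference as headed and a fall with LPS in tlr4f/f-lysM-cre when exchanged. Between the groups headed LPS- the value was -1.43 (edgeR adjusted p = 0.0138). Reads of Mgl2 and Clec10a could have been split between the near copies in counting, as could those of Chil3 and Chil4. Chil4 had 0 counts in all 12 libraries, and Chil1, a further relative of Chil3, had 14, 12 and 70 counts in columns headed LPS- tlr4f/f-lysM-cre and at most 9 in any other.

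Tgfb1 encodes transforming growth factor beta 1 (chr7:25687002-25705077, plus strand). It was at 312, 371 and 256 CPM in columns headed LPS- tlr4f/f, at 469, 389 and 352 CPM under the heading LPS- tlr4f/f-lysM-cre, at 376, 389.5 and 366 CPM under the heading LPS+ tlr4f/f and at 466, 463 and 464 CPM under the heading LPS+ tlr4f/f-lysM-cre. The groups headed LPS+ did not overlap and the groups headed LPS- did. The columns headed LPS+ tlr4f/f-lysM-cre were 1.24-fold above those headed LPS+ tlr4f/f (log2 0.31, SE 0.0494, edgeR adjusted p = 0.0001425), a genotype difference as headed and an effect of LPS in tlr4f/f-lysM-cre when exchanged, and too small for the DEG criteria. In a single fit of all 12 libraries it did not pass (log2 0.30, edgeR adjusted p = 0.1485, range 2.10e-09 to 0.1485 over the alternatives). Against the columns headed LPS- tlr4f/f they were 1.49-fold higher (log2 0.57, SE 0.152, edgeR adjusted p = 0.02595, range 0.00227 to 0.0897). This adjusted p rose above 0.05 without replicate 1 headed LPS- tlr4f/f (0.05165) and without replicate 1, 2 or 3 headed LPS+ tlr4f/f-lysM-cre (0.0879, 0.0897 and 0.0842). Other comparisons gave log2 values of 0.36 (the groups headed LPS-), 0.28 (headed tlr4f/f) and 0.22 (headed tlr4f/f-lysM-cre), with edgeR adjusted p-values of 0.225, 0.310 and 0.273, and the interaction was -0.065 (edgeR adjusted p = 0.880).

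Igf1 encodes insulin-like growth factor 1 (chr10:87858265-87937047, plus strand). Its levels were 356, 619 and 436.5 CPM in columns headed LPS- tlr4f/f, 214, 345 and 246 CPM under the heading LPS- tlr4f/f-lysM-cre, 504.5, 473 and 432 CPM under the heading LPS+ tlr4f/f and 357, 364 and 389.7 CPM under the heading LPS+ tlr4f/f-lysM-cre. All libraries headed tlr4f/f-lysM-cre with LPS- were below the other 9, and the groups headed LPS+ did not overlap. The columns headed LPS+ tlr4f/f-lysM-cre were 1.26-fold below those headed LPS+ tlr4f/f (log2 -0.33, SE 0.0654, edgeR adjusted p = 0.0007355), but in a single fit of all 12 libraries this did not pass (log2 -0.34, edgeR adjusted p = 0.257, range 1.16e-08 to 0.257 over the alternatives). For the groups headed LPS- the value was log2 -0.82 (SE 0.279, edgeR adjusted p = 0.0582, range 0.00819 to 0.191), and the adjusted p was below 0.05 with DESeq2 (0.0441), limma (0.0480) and the single fit (0.00819), and without replicate 1 headed LPS- tlr4f/f (0.0492). As headed these are genotype differences, and exchanged they are effects of LPS. Within the genotype of the heading the log2 values were 0.01 for tlr4f/f and 0.48 for tlr4f/f-lysM-cre (edgeR adjusted p = 0.978 and 0.0889, the latter within 0.0107 to 0.240 over the alternatives), the interaction was 0.47 (edgeR adjusted p = 0.387), and the value for the columns headed LPS+ tlr4f/f-lysM-cre against LPS- tlr4f/f was -0.34 (edgeR adjusted p = 0.238).

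In CPM per kb, the group means, in the order of headings used for single libraries above, were 144, 185.5, 173 and 213 for Tgfb1 and 66.0, 37.6, 65.95 and 52.0 for Igf1. For Il4ra they were 11.8, 71.4, 5.94 and 27.2, and for Pparg 18.5, 3.77, 28.6 and 5.12. Tgfb1 was the most abundant of the 7 genes under each heading. Igf1 came next except in the columns headed LPS- tlr4f/f-lysM-cre, where Il4ra was above Igf1 in 3 of 3 libraries. Chil3, with means of 1.44, 9.74, 1.17 and 1.30 CPM per kb, was above Pparg only in the mean of the columns headed LPS- tlr4f/f-lysM-cre with replicate 3 far above the others of that group. In that group Chil3 was above Pparg in replicates 1 (2.74 against 2.32) and 3 (24.1 against 4.43). In replicate 2 it was below (2.41 against 4.57). Mgl2 was between 0.146 and 0.434 CPM per kb.

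Other genes with a pattern like a member's over the 12 libraries were found by Pearson's r of log2 CPM among 15791 genes, as a description of libraries that share groups. For Il4ra they were Misp (0.995), Dhx58 (0.994) and Helz2 (0.9935), for Pparg Fam83f (0.989), A430088P11Rik (0.986) and Casp9 (0.984), for Tgfb1 Sertad2 (0.968) and Tcp1 (0.961), for Igf1 Ppm1m (0.963), Nrros (0.962) and Dhrs3 (0.959), and for Mgl2 Grasp (0.894) and 1700087I21Rik (0.867). Nrros is also on the list of TGF-beta pathway genes. Mgl2 had the lowest values, at the lowest counts of the 6 genes.

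The genes around Il4ra were taken from a list of 13 genes of interleukin-4 receptor signalling, of which 10 were tested. The most abundant were Ptpn6, Jak1 and Stat6, with means of 449, 287 and 198 CPM over the 12 libraries. Between columns headed LPS- tlr4f/f-lysM-cre and columns headed LPS- tlr4f/f, 4 were higher and 0 lower as DEGs, with Socs1, an inhibitor of Janus kinases, the largest (log2 5.95, SE 0.466, edgeR adjusted p = 0.000654), and the list median was 1.51, where 17.1% of all genes were DEGs. In the groups headed LPS+, where 21.8% of all genes were DEGs, 5 were higher and 1 lower in the columns headed LPS+ tlr4f/f-lysM-cre, with Socs1 again the largest (log2 5.54, SE 0.198, edgeR adjusted p = 6.97e-08), and Irs2, an adaptor of insulin and interleukin-4 receptors, was lower (log2 -1.42, SE 0.223, edgeR adjusted p = 0.000126). Under the exchanged headings all of these are effects of LPS. In the columns headed LPS+ tlr4f/f-lysM-cre against LPS- tlr4f/f-lysM-cre, 2 were lower, with Irs2 the largest (log2 -3.85, SE 0.436, edgeR adjusted p = 0.00275), and Irs2 was also the 1 gene of the list with an interaction (log2 -2.94, SE 0.467, edgeR adjusted p = 0.00761). The columns headed LPS+ tlr4f/f-lysM-cre had 3 higher and 1 lower than those headed LPS- tlr4f/f, with Cish (log2 5.43) and Irs2 (log2 -2.35) the largest (edgeR adjusted p = 0.00232 for both). All genes were called at 6.09% and 13.4% in these last 2 comparisons and at 0.994% for the interaction. Stat6 itself had means of 254, 193, 189 and 156.5 CPM in the order of headings given above.

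Of 14 partners and targets of PPAR-gamma, 13 were tested in most comparisons. Lpl, Cd36 and Abcg1, genes of lipid uptake and efflux, were the most abundant, with means of 7887, 1877 and 332 CPM over the 12 libraries. While Pparg was lower in the columns headed LPS- tlr4f/f-lysM-cre than under the heading LPS- tlr4f/f, 0 of these 13 genes were DEGs there by edgeR, against 17.1% of all genes, and the list median was -0.10. In the groups headed LPS+, 2 were higher, with the liver X receptor gene Nr1h3 the largest (log2 1.86, SE 0.0843, edgeR adjusted p = 1.505e-09). Lower in the columns headed LPS+ tlr4f/f-lysM-cre were 2, with Angptl4, a secreted inhibitor of lipoprotein lipase, the largest (log2 -4.44, SE 0.388, edgeR adjusted p = 6.93e-07, at 2 to 10 counts in the lower group), and the list median was -0.17, where 21.8% of all genes were DEGs. Angptl4 had means of 4.53, 0.258, 2.67 and 0.117 CPM in the order of headings given above. It was also the larger of 2 lower genes in the columns headed LPS+ tlr4f/f-lysM-cre against LPS- tlr4f/f (log2 -5.22, SE 0.666, edgeR adjusted p = 0.00221), where 6.45% of all genes were lower. Klf9 was the 1 gene higher in the columns headed LPS+ tlr4f/f-lysM-cre than under the heading LPS- tlr4f/f-lysM-cre, of 12 tested (log2 1.75, SE 0.307, edgeR adjusted p = 0.00975), where 2.42% of all genes were higher. Cd36, a target of PPAR-gamma, had means of 1185, 1781, 2313 and 2230 CPM, with a range from 193 to 1847 CPM within the columns headed LPS- tlr4f/f.

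A list of 24 other genes of alternative activation was examined next. In the groups headed LPS+, 9 of 20 tested were higher and 5 lower in the columns headed LPS+ tlr4f/f-lysM-cre, and between the groups headed LPS-, 3 of 20 were higher and 0 lower under the heading LPS- tlr4f/f-lysM-cre, with the cytokine gene Il10 the largest (log2 5.87, SE 0.796, edgeR adjusted p = 0.00285). The list medians were 0.61 and 0.49, beside -0.02 and -0.08 for all genes, of which 10.8% were higher and 10.9% lower in the former comparison and 9.26% higher and 7.81% lower in the latter. The chemokine gene Ccl17 led the former with 69 to 111 counts in columns headed LPS+ tlr4f/f-lysM-cre and at most 1 under the heading LPS+ tlr4f/f, and Clec10a, given above, was the largest of those that were lower. Under the exchanged headings these are effects of LPS in each genotype. Il10 had means of 2.09, 123, 0.734 and 6.05 CPM in the order of headings given above. It was thus highest in the 2 groups with high Il1b and Nos2, and the list medians are not read as a measure of alternative activation. Against those headed LPS- tlr4f/f-lysM-cre, the columns headed LPS+ tlr4f/f-lysM-cre had 1 of 19 higher, Egr2, a transcription factor of the early growth response family (log2 3.02, SE 0.206, edgeR adjusted p = 0.000962), and 4 lower, with Il10 the largest (log2 -4.34, SE 0.382, edgeR adjusted p = 0.00134), beside 2.42% and 3.66% of all genes. Klf4, another transcription factor, was the 1 of 22 genes with an interaction (log2 -2.66, SE 0.320, edgeR adjusted p = 0.00251), beside 0.994% of all genes. Between columns headed LPS+ tlr4f/f-lysM-cre and columns headed LPS- tlr4f/f, 3 of 20 were higher and 2 lower, with the chemokine gene Ccl22 (log2 7.935, SE 0.605, edgeR adjusted p = 0.000478) and Clec10a the largest, beside 6.93% and 6.45% of all genes. The most abundant genes of the list were Mmp12, Il1rn and Clec7a, with means of 2621, 1217 and 244 CPM.

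A list of 10 classical activation genes was set beside these. In the columns headed LPS- tlr4f/f-lysM-cre against LPS- tlr4f/f, 9 of 10 were higher with Nos2 the largest (log2 10.92, SE 1.58, edgeR adjusted p = 0.00345). In the groups headed LPS+, 9 of 10 were higher in the columns headed LPS+ tlr4f/f-lysM-cre, with Il12b at 2358 to 4497 counts against 2 to 4. The medians were 9.17 and 7.84 on the log2 scale, against 9.26% and 10.8% of all genes higher, and under the exchanged headings both are effects of LPS. The columns headed LPS+ tlr4f/f-lysM-cre had 3 of 10 lower than those headed LPS- tlr4f/f-lysM-cre, with Nos2 the largest (log2 -4.33, SE 0.469, edgeR adjusted p = 0.00249), and 8 of 10 higher than those headed LPS- tlr4f/f, with Il1b the largest (log2 9.45, SE 1.46, edgeR adjusted p = 0.00437), beside 3.66% lower and 6.93% higher of all genes. Rsad2, Ptgs2 and Il1b had the highest means over the 12 libraries, at 2556, 2457 and 1704 CPM. For the 7 genes, the 2 groups with high classical activation genes were therefore those with high Il4ra and low Pparg.

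**Figure D5:**
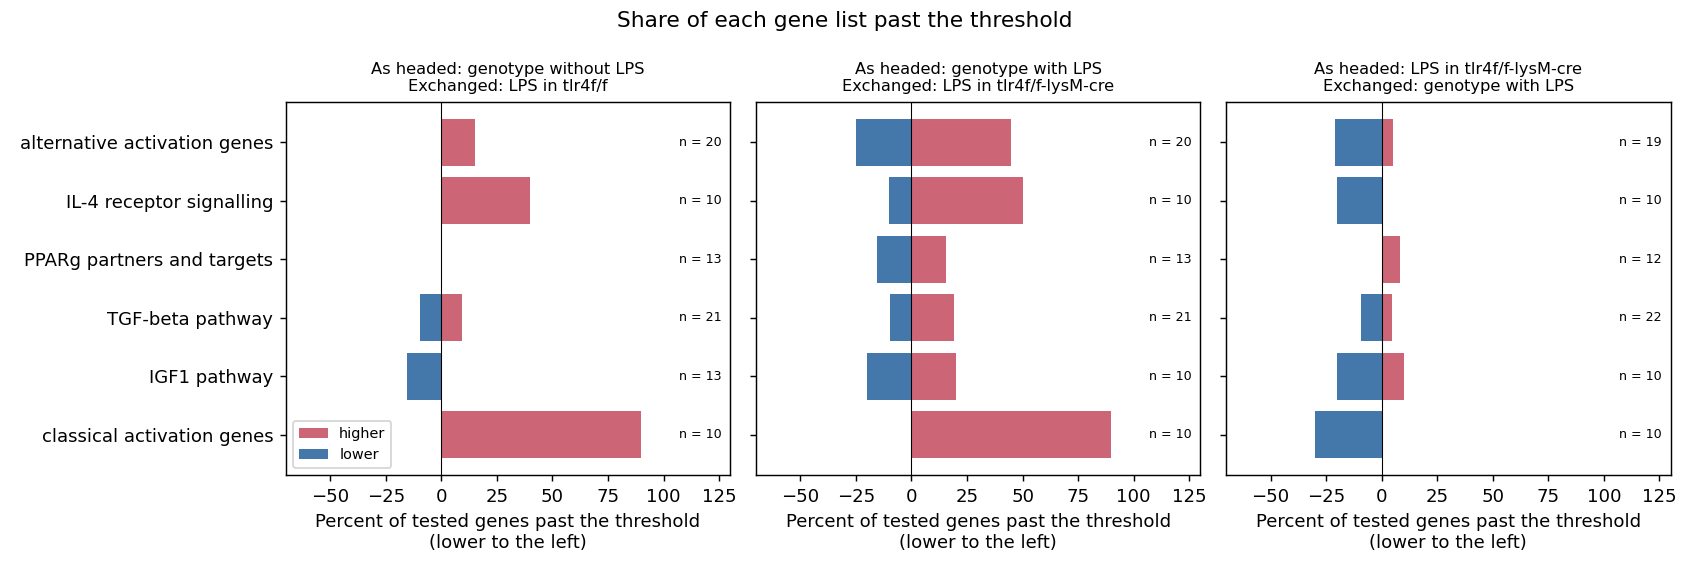
Percent of tested genes of each list that passed the DEG criteria as higher (red, to the right) or lower (blue, to the left) in 3 comparisons, named by the headings and by the exchanged headings, with the number tested. The classical activation genes were 9 of 10 higher in 2 of the comparisons, while the alternative activation genes were 9 of 20 higher and 5 of 20 lower between the groups headed LPS+.

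Around Tgfb1, a list of 22 genes of the TGF-beta pathway was examined, of which 21 or 22 were tested. In the columns headed LPS- tlr4f/f-lysM-cre against LPS- tlr4f/f, 2 were higher and 2 lower, led by Itgb8, an integrin subunit that releases latent TGF-beta (822 to 2199 counts against 0 to 16), and by the receptor gene Tgfbr2 (log2 -2.19, SE 0.375, edgeR adjusted p = 0.00601). In the groups headed LPS+, 4 were higher and 2 lower in the columns headed LPS+ tlr4f/f-lysM-cre, led by Itgb8 (log2 5.80, SE 0.142, edgeR adjusted p = 7.18e-12) and Tgfbr3 (log2 -1.70, SE 0.290, edgeR adjusted p = 0.0002475). The list medians were 0.44 and -0.04 in these comparisons, with 17.1% and 21.8% of all genes called, which are of genotypes as headed and of LPS when exchanged. Comparing the columns headed LPS+ tlr4f/f-lysM-cre with LPS- tlr4f/f-lysM-cre, 1 was higher, Tgfbr1 (log2 1.53, edgeR adjusted p = 0.00779), and 2 were lower. Compared with LPS- tlr4f/f, 2 were higher and 4 lower, led by Itgb8 (1134 to 1210 counts against 0 to 16) and Tgfbr2 (log2 -2.55, edgeR adjusted p = 0.00156). Of all genes, 6.09% and 13.4% were called in these 2 comparisons. The most abundant genes were Tgfbi, Furin and Skil (273, 226 and 200.0 CPM).

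Of 16 genes of the IGF1 pathway, 10 to 13 were tested. The columns headed LPS- tlr4f/f-lysM-cre had 2 lower than those headed LPS- tlr4f/f, with the binding protein gene Igfbp4 the largest (log2 -1.54, SE 0.224, edgeR adjusted p = 0.00330). In the groups headed LPS+, 2 were higher and 2 lower in the columns headed LPS+ tlr4f/f-lysM-cre, led by Igfbp3 (log2 2.94, SE 0.5285, edgeR adjusted p = 0.000374, at 2 to 6 counts in the lower group) and Irs2, which is on both lists. The list medians were 0.39 and -0.16, with 17.1% and 21.8% of all genes called, and exchanged, these too are effects of LPS. Against the columns headed LPS- tlr4f/f-lysM-cre, 1 was higher, the insulin receptor gene Insr (log2 1.135, edgeR adjusted p = 0.00572), and 2 were lower, led by Igfbp5 (log2 -4.85, edgeR adjusted p = 0.00989, at 9.19 to 90.5 CPM within the higher group, where the stromal markers varied too, with 3 of 8 of them lower in the same comparison). Against those headed LPS- tlr4f/f, 2 were lower, led by Igfbp4 (log2 -2.43, edgeR adjusted p = 0.000464), where 6.09% and 13.4% of all genes were called. Irs2 was the 1 of 13 genes with an interaction, beside 0.994% of all genes. Igf2r, Akt1 and Igfbp4 had the highest means (485, 220.2 and 96.1 CPM). For the columns headed LPS+ tlr4f/f against LPS- tlr4f/f, none of the 6 pathway lists held a DEG by edgeR, where 0% of all genes were DEGs.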

How the data were processed

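The authors trimmed reads (Trimmomatic 0.36 in the submitters' processing notes), used HISAT2 for alignment to mm10 and HTSeq for counting. They deposited whole-number counts for 115140 transcripts, without normalization, beside a transcript length. Transcripts of a gene share reads, so for each of 43453 genes the transcript with the highest total over the 12 libraries was used, leaving 33577440 to 56445989 counts per library. Libraries were grouped by column headings, and the exchange of the 2 headings named above was run beside them.

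Tests were run with edgeR 4.0.16 under R 4.3.3 (genes kept by filterByExpr, TMM factors, robust quasi-likelihood fit and test, Benjamini-Hochberg adjustment over all genes tested). Each comparison used its 6 libraries and the interaction all 12. Levels are TMM CPM, or CPM per kb of the listed length. Counts of reads are not independent molecules, so floors of 3 counts cover counting error only. The alternatives were DESeq2 1.42.0, limma 3.58.1 (voom, samples weighted by quality), all genes with at least 1 count, RLE factors, a single fit of 12 libraries, a replicate block, an adjusted p below 0.05, the sum over transcripts, exchanged headings, and each library left out.

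Named are the 7 genes, their near copies, the checks of the headings (Tlr4, Lyz2, Il1b and Nos2), in each list the 3 most abundant genes and the DEG with the largest change in each direction, and the 3 genes most like each member (prior count 2). The lists were alternative activation genes, IL-4 receptor signalling, PPAR-gamma partners and targets, TGF-beta pathway, IGF1 pathway and classical activation genes, and markers of macrophages, stromal cells, neutrophils, eosinophils, dendritic cells, and mast cells and basophils. Ear11 and Plin2 were not found by symbol. A gene without a symbol, most like Mgl2, and some other genes that this rule picks are not named. The 7 genes and the lists were chosen with earlier results of these data known. Promoters were searched with Python 3.11.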

Additional observations from a re-analysis of the deposited data

How the results depend on the processing

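Apart from the exchange of headings, the number of DEGs among the 7 genes stayed within 1.5 times of the value given in 74 of 89 cases, and of the fold changes 497 kept direction and side of the threshold, 20 reversed, 8 passed it and 9 no longer did. The cause of each change was not tested, and the share of all genes called by DESeq2 and limma is not given. Retnla, with 1 count in 12 libraries, was given no fold change. Group levels moved by more than 1 SD in 21 of 24 cases when transcripts were summed and in 1 with RLE factors.

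With the headings exchanged, the effect of LPS in tlr4f/f had 2 DEGs in place of 0, with log2 fold changes of 2.76 for Chil3, 2.59 for Il4ra, -2.30 for Pparg and -0.82 for Igf1, all reversed. The effect of LPS in tlr4f/f-lysM-cre had 2 DEGs in place of 1, with reversed values of 0.18 for Chil3, 2.20 for Il4ra, -2.47 for Pparg and -0.33 for Igf1. The genotypes without LPS had 0 in place of 2, with -0.30 for Chil3, -0.98 for Il4ra, 0.64 for Pparg and 0.0127 for Igf1. The genotypes with LPS had 1 in place of 2, with -2.91 for Chil3, -1.38 for Il4ra, 0.45 for Pparg and 0.48 for Igf1.

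The other values below follow the headings as deposited. For LPS in tlr4f/f, Igf1 reversed with limma (-0.0073) and in a single fit of 12 libraries (-0.0019), and Mgl2 with transcripts summed (-0.23). Pparg (0.034) and Tgfb1 (0.001) reversed in the interaction with limma, and Chil3 (0.14) with limma for libraries headed LPS+ tlr4f/f-lysM-cre against LPS- tlr4f/f. In this comparison DESeq2, limma and the single fit each gave 2 DEGs in place of 1, adding Il4ra, and an adjusted p below 0.05 gave 3. For the genotypes with LPS the latter gave 4 in place of 2.

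Whether the replicate numbers pair the libraries was not settled. Deviations of same-numbered libraries correlated between -0.0374 and 0.472, above 0.1 in 5 of 18 pairs. The highest values, 0.472 and 0.340, were those of replicates 1 and 2 between the groups headed LPS-, where replicate 3 gave 0.0138. When exchanged, this is a comparison within tlr4f/f. Libraries with different numbers were not compared, so these values cannot tell whether same-numbered libraries share a culture. With the replicate number as a block, LPS in tlr4f/f-lysM-cre had 0 DEGs in place of 1 (Il4ra, edgeR adjusted p = 0.0146), and Chil3 reversed for LPS in tlr4f/f (0.67) and for libraries headed LPS+ tlr4f/f-lysM-cre against LPS- tlr4f/f (0.78). At an adjusted p of 0.05 with any fold change, the block moved Igf1 for the genotypes without LPS (edgeR adjusted p = 0.0131) and Tgfb1 for the latter comparison (0.0511) across the threshold. The block changed no other call.

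Leaving out 1 library at a time, the number of DEGs was 0 to 1 for LPS in tlr4f/f, 0 to 1 for LPS in tlr4f/f-lysM-cre, 1 to 2 for the genotypes without LPS and 0 to 1 for libraries headed LPS+ tlr4f/f-lysM-cre against LPS- tlr4f/f. Log2 fold changes that crossed 0 ran from -0.87 to 0.58 (Chil3), -0.15 to 0.49 (Mgl2) and -0.15 to 0.27 (Igf1) for LPS in tlr4f/f, from -0.13 to 0.53 (Chil3) for the genotypes with LPS, from -0.20 to 0.084 (Tgfb1) for the interaction and from -0.72 to 0.72 (Chil3) for the last comparison.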
